A study of Mus musculus with 28 samples.

Results

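The genes described here are 7 of the 50600 genes in the deposited table: the 5 CCN family genes Cyr61 (also Ccn1), Ctgf (Ccn2), Nov (Ccn3), Wisp1 (Ccn4) and Wisp2 (Ccn5), and Ankrd1 and Amotl2, which with Cyr61 and Ctgf are the usual readouts of the transcriptional co-activators YAP and TAZ. They were chosen by name, with earlier results of these libraries known. Nov was selected on the contrast of p38i-treated with untreated MEFs, in which it was one of the 3 genes of largest rise by the rule then used. That contrast is therefore given for the 7 genes as a description with no test. All 7 were found under their older symbols and all passed the filter on low values, a mean of at least 1 over all libraries, as did 13230 genes in all. The 6th CCN gene, Wisp3, was listed at 0 in every library.

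CCN proteins are secreted, cysteine-rich proteins of the matrix around cells. They bind integrins, heparan sulfate proteoglycans and LRP receptors, and they are known for roles in adhesion, matrix production and wound repair by fibroblasts. YAP and TAZ enter the nucleus when the kinases of the Hippo pathway are idle, as in spread cells on a stiff support, and there bind TEAD factors at genes such as Ctgf, Cyr61, Ankrd1 and Amotl2. Amotl2 encodes an angiomotin that holds YAP in the cytoplasm, and Ankrd1 encodes an ankyrin repeat protein of muscle that fibroblasts also express. Nov, Wisp1 and Wisp2 are CCN genes that are not used as YAP readouts.

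RNA-seq was given for 28 libraries in 14 groups of 2, all from WT mouse embryonic fibroblasts (MEFs), primary cells that by the paper carry a GFP reporter of Oct4. The first 2 groups are MEFs with no treatment and MEFs treated with SB203580, an inhibitor of the p38 MAP kinases (p38i). The other 12 groups are cells on days 1, 3, 5 and 7 of reprogramming with Oct4, Klf4 and Sox2 (OKS), delivered by retrovirus, in 3 conditions: with no inhibitor named in the labels (control, DMSO in the paper), with p38i during induction (p38i), or with p38i before it (pre-p38i). The labels place all cells in the induction medium iCD1, whereas the paper grows MEFs in a serum medium. The contrast of MEFs with day 1 thus joins the medium, the virus and the factors, and these cannot be told apart. The labels do not say whether the libraries of a group came from separate cultures, so the p-values measure only the spread between these libraries, which may be technical.

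Each value is a whole number read as TPM, a transcript's share of its library per gene length, on which levels of different genes can be compared. The libraries added up to between 991287 and 992537, with 12454 to 14170 genes at 1 or more and 1.95 to 6.18% of the total in mitochondrial genes. The depth is unknown, so no counting error is given, and an exact 0 is reported only as listed at 0. Differences are on the log2(value + 1) scale, which understates the change of low genes, from limma fitted to all 13230 genes and all 28 libraries. A gene is called at a Benjamini-Hochberg adjusted p under 0.05 over all genes. For 1 gene, the smallest p of an exact permutation test is 0.333 with groups of 2. Wherever a count of called members or list genes below is 0 in a direction, 0 of them also had an unadjusted limma p under 0.05 in that direction, in the fit of all libraries. In bulk RNA, fewer cells of a type and less RNA per cell cannot be told apart.

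Promoter sequences are shown because YAP and TAZ reach these genes through TEAD factors, whose core motif reads GGAATG. On the opposite strand it reads CATTCC. RefSeq windows of 300 bases on GRCm38.p6, from 250 before to 50 after the annotated start, were matched for 3 of the 7 genes. They are printed in the direction of the gene, with the TEAD letters in capitals. Cyr61 lies at chr3:145649936-145650235 (minus strand), Ankrd1 at chr19:36119795-36120094 (minus strand) and Amotl2 at chr9:102717554-102717853 (plus strand).
Cyr61: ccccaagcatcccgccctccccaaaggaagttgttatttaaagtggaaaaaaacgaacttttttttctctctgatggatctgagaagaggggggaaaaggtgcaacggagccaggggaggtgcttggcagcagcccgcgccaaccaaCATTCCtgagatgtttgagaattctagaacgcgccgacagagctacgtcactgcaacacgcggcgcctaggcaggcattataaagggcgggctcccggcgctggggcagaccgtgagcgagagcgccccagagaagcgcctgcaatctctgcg
Ankrd1: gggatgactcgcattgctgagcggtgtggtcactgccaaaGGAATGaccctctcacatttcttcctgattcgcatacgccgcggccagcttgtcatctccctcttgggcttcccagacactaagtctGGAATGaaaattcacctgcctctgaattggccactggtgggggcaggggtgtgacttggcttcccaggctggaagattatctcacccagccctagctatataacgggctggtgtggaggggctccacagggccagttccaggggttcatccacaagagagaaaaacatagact
Amotl2: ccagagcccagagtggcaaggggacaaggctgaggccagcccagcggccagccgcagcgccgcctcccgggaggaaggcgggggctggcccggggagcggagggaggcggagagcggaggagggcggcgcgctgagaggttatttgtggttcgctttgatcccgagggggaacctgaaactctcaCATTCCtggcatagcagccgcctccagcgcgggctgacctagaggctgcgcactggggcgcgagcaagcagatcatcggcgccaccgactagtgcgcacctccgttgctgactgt
The Cyr61 window held the motif 103 bases upstream of the start, on the opposite strand. Ankrd1 held it at 210 and 123 bases upstream, on the strand of the gene. Amotl2 held it 65 bases upstream, on the opposite strand, at a RefSeq start inside the gene span that the file gives. Of 32851 windows of this length, 14.7% held GGAATG on either strand. The Cyr61 window also held TATAAA 25 bases upstream, read on the gene's strand, as 8.32% of windows did. The AP-1 letters TGANTCA, searched on both strands, were in none of the 3 windows and in 7.81% of all. The motifs searched do not overlap each other here. A match describes letters, not a bound site.

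Ctgf (ENSMUSG00000019997, chr10:24595442-24598683) was the most abundant member in MEFs. Untreated MEFs had 1741 and 1746 and p38i-treated MEFs 1339 and 1459, so the groups did not overlap. In control cells it was 198 and 189 on day 1, 315 and 293 on day 3, 304 and 319 on day 5, then 235 and 268 on day 7. All induction libraries thus stood far below the MEFs, and the lowest control values were those of day 1. In pre-p38i it was 193 and 197 on day 1, 230 and 219 on day 3, 133 and 135 on day 5, then 74 and 75 on day 7. In p38i it was 190 and 161 on day 1, 283 and 294 on day 3, 381 and 386 on day 5, then 451 and 466 on day 7. On day 1 each treated condition overlapped control, pre-p38i was below control from day 3, and p38i was above control on days 5 and 7. An antisense gene, Gm15270, overlaps Ctgf and shares an identical stretch of 347 bases with it, and its values were 0 to 2 in all libraries. Strand was not stated, so the reads of the pair cannot be told apart.

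Cyr61 (ENSMUSG00000028195, chr3:145646976-145649981) encodes a matrix protein that promotes adhesion and is an immediate early gene of growth factors. Its values were 942 and 921 in untreated MEFs and 1020 and 1043 in p38i-treated MEFs. Control cells had 124 and 121 on day 1, 146 and 137 on day 3, 140 and 138 on day 5, then 81 and 92 on day 7. In control it thus lay between 121 and 146 until day 5 and was lowest on day 7. Pre-p38i cells had 98 and 99, 125 and 111, 76 and 80, and then 29 and 30 on days 1, 3, 5 and 7. The p38i cells had 91 and 82, 118 and 121, 138 and 148, and then 142 and 136 on the same days. Both treated conditions were below control on days 1 and 3, and on day 7 they lay on opposite sides of it without overlap.

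Nov (ENSMUSG00000037362, chr15:54745702-54754039), a CCN protein known to restrain growth in several cell types, was low in all groups but one. Untreated MEFs had 6 and 8 and p38i-treated MEFs 38 and 32. Control cells had 4 and 5 on day 1, 6 and 9 on day 3, 9 and 9 on day 5, then 5 and 6 on day 7. The p38i-treated MEFs were thus the only group above 11. Pre-p38i cells had 11 and 10, 5 and 7, 4 and 6, and then 4 and 3 on days 1, 3, 5 and 7. The p38i cells had 4 and 5, 10 and 7, 11 and 10, and 11 and 11 on the same days. On day 1 the pre-p38i cells stood above both other conditions, and from day 3 on they overlapped or lay below control.

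Wisp1 (ENSMUSG00000005124, chr15:66891320-66923201), a target of Wnt and beta-catenin signalling, had 145 and 150 in untreated MEFs and 62 and 64 in p38i-treated MEFs. In control cells it was 47 and 39 on day 1, 24 and 25 on day 3, 14 and 15 on day 5, then 7 and 8 on day 7, so that no neighbouring days overlapped. Pre-p38i cells had 30 and 30, 14 and 13, 6 and 5, and then 2 and 1, below control on each day. The p38i cells had 25 and 25, 17 and 16, 16 and 13, and then 10 and 10, below control on days 1 and 3 and above it on day 7. Wisp2 (ENSMUSG00000027656, chr2:163820861-163833146), the CCN protein without the C-terminal domain of the family, had 74 and 82 in untreated MEFs and 67 and 61 in p38i-treated MEFs. It was listed at 0 in all 24 induction libraries, already on day 1, so it adds nothing to the comparisons between conditions.

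Ankrd1 (ENSMUSG00000024803, chr19:36111965-36119844) had 206 and 217 in untreated MEFs and 156 and 159 in p38i-treated MEFs. Control cells had 21 and 21 on day 1, 4 and 4 on day 3, 4 and 5 on day 5, then 3 and 3 on day 7. Pre-p38i cells had 4 and 4 on day 1, 2 and 2 on day 3, 3 and 2 on day 5, and were listed at 0 and 0 on day 7. The day 1 level in pre-p38i was thus one that control reached on day 3. The p38i cells had 15 and 16, 3 and 6, 5 and 4, and 5 and 6 on the same days. After day 1 every induction library was at 6 or less, so differences there rest on a few units of a rounded scale. Skeletal muscle markers, which could accompany Ankrd1, summed to 15 to 23 in MEFs and to 4 or less in the induction libraries. Their part in its values was not tested.

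Amotl2 (ENSMUSG00000032531, chr9:102716672-102733418) had 255 and 238 in untreated MEFs and 248 and 246 in p38i-treated MEFs, which overlapped. Control cells had 61 and 57, 60 and 58, 66 and 68, and 50 and 53 on days 1, 3, 5 and 7. Pre-p38i cells had 45 and 52, 54 and 53, 45 and 48, and 32 and 35. The p38i cells had 53 and 50, 42 and 48, 66 and 64, and 56 and 66. Day 7 in pre-p38i held its lowest level in the series, and all other induction groups lay between 42 and 68.

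**Figure D1:**
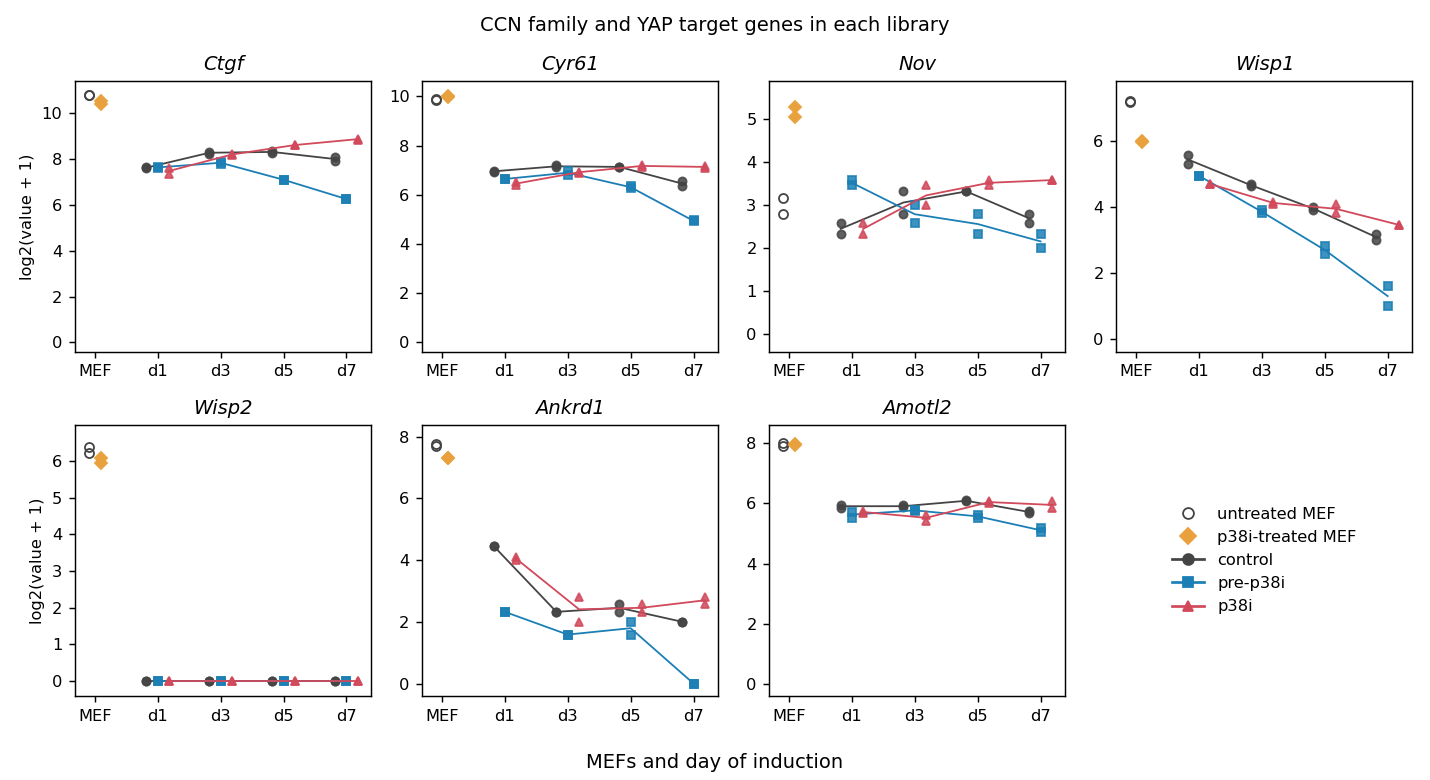
Values of the 7 genes in each library, as log2(value + 1), in MEFs and on days 1, 3, 5 and 7, where points are libraries and lines join the means of 2 libraries. Every gene but Nov stood higher in both MEF groups than in any induction group, and Nov did so only in p38i-treated MEFs (38 and 32). On day 7 the pre-p38i points lay lowest and the p38i points highest for all genes but Wisp2.

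In MEFs, p38i went with a higher Nov and a lower Wisp1, and with smaller differences in the 4 YAP readouts. Since this contrast chose Nov, the values are a description. The mean of Nov was 35 in p38i-treated and 7 in untreated MEFs, a log2 difference of 2.18 (4.52-fold). Wisp1 went the other way, with a log2 difference of -1.21 (0.431-fold), and Ctgf, Ankrd1 and Wisp2 differed by -0.32, -0.42 and -0.28. Cyr61 and Amotl2 differed by 0.15 and 0.00, so the 4 YAP readouts did not share a direction. No call of a member is given for this contrast, in which 9.73% of all genes tested were called higher and 8.15% lower. The summed fibroblast markers were 7189 and 6948 in untreated and 4047 and 4055 in p38i-treated MEFs, with Col1a1, Col1a2 and Thy1 leading the list and Lum listed at 0 in untreated MEFs. Of the 7 markers, 3 were called lower, and 1 was higher at an unadjusted limma p under 0.05. Their median difference was -0.24. Macrophage markers summed to 273 and 266 in untreated and 190 and 184 in p38i-treated MEFs, with 5 of 8 tested called lower. The part of these differences in the members' values was not tested.

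From MEFs to control day 1, all members fell. All 7 were called lower, beside 18.9% of all genes tested, and 0 were called higher, beside 36.6%. Ctgf fell to 0.112-fold of its MEF level on the log2(value + 1) scale (log2 difference -3.17, SE 0.067, adjusted p = 1.3e-18, limma). Ankrd1 differed by -3.27 (SE 0.19, adjusted p = 1.2e-11), Cyr61 by -2.92 (SE 0.065, adjusted p = 3e-18) and Amotl2 by -2.04 (SE 0.082, adjusted p = 3.5e-14) in the same limma fit. Wisp1 differed by -1.76 and Nov by -0.54 (limma adjusted p = 1.9e-09 and 0.0407), and the call of Nov was lost in 5 of 10 alternatives, among them those without untreated MEF replicate 2 (-0.35) and without control day 1 replicate 1 (-0.40). Wisp2 went from 74 and 82 to 0 and 0, for which no fold is given. The median member difference was -2.92 and that of all genes 0.14. Under quantile normalization the latter was -0.01, and the share of calls that were higher went from 65.9% to 49.6%. The genes of the SRF and MRTF actin program fell with them (11 of 12 tested called lower), among them Acta2 (log2 difference -2.79), the smooth muscle actin of activated fibroblasts, and Cnn1 (-2.62), a calponin. Of 9 SMAD targets of TGF-beta 7 were called lower. Summed fibroblast markers were 3439 and 3254 on control day 1 against 7189 and 6948 in MEFs. Of the 7 markers, 5 were called lower and 2 higher, and their part in the members' fall was not tested.

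Within control cells from day 1 to day 7, the members parted. Ctgf was called higher (log2 difference 0.37, SE 0.067, limma adjusted p = 9.4e-05), the 1 member of 7 that was, beside 28.4% of all genes. In a fit of only these 4 libraries it was not called. Lower were 3 members, beside 26.1% of all genes: Wisp1 (-2.37, SE 0.14), Ankrd1 (-2.46, SE 0.19) and Cyr61 (-0.50, SE 0.065). Nov (0.24, limma adjusted p = 0.358) and Amotl2 (-0.19, limma adjusted p = 0.055) did not pass. The value of Nov was 0.11 without control day 1 replicate 1, 0.13 without day 7 replicate 2 and 0.37 without day 1 replicate 2. The Ctgf mean was 193.5, 304, 311.5 and 251.5 on days 1, 3, 5 and 7. From day 1 to day 7 the summed fibroblast markers went from 3439 and 3254 to 1093 and 1154. Of the 7 markers, 6 were called lower and 1 higher, and their part in the members' values was not tested. Of the SRF and MRTF list 10 of 12 genes were called lower, led by Tagln (-5.44), an actin-binding protein.

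On day 1 of induction after pre-treatment, Nov was higher and Ankrd1 lower than in control. Nov was called higher (log2 difference 1.07, SE 0.21, limma adjusted p = 0.0027), 1 member beside 5.40% of all genes. It was not called on day 3 (-0.27, limma adjusted p = 0.414), where its value rested on single libraries. It was -0.53 without control replicate 1 and -0.48 without pre-p38i replicate 2, but -0.0149 without control replicate 2 and -0.0646 without pre-p38i replicate 1. Ankrd1 showed the largest day 1 difference of the members, -2.14 (SE 0.19, limma adjusted p = 4.3e-07), the 22nd largest of all genes tested by absolute size. Cyr61 (-0.31), Wisp1 (-0.50) and Amotl2 (-0.28) were also called lower, which makes 4 members beside 6.24% of all genes. The calls of Wisp1 and Amotl2 were lost in 5 and 4 of 10 alternatives. That of Wisp1 was lost without control replicate 1 (-0.37) or without either pre-p38i library (-0.50 each), and that of Amotl2 without control replicate 1 (-0.23), control replicate 2 (-0.33) or pre-p38i replicate 1 (-0.18). Ctgf did not pass on day 1 (0.01, 95% interval -0.13 to 0.15). A fit of only the 4 libraries compared called 2 members on day 1 and 2 on day 3, and Nov was not among those of day 1. Macrophage markers on day 1 summed to 86 and 80 in pre-p38i against 246 and 239 in control. Fibroblast markers summed to 2234 and 2340 against 3439 and 3254, with 3 of 7 called lower and 1 higher. Their part was not tested.

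On days 3, 5 and 7 the median difference of the 7 members in pre-p38i, with Wisp2 counted at 0, was -0.27, -0.76 and -1.52. On day 3, 4 members were called lower (6.87% of all genes) and 0 higher (13.8%), with a higher share of all calls of 66.7%, or 50.1% under quantile normalization. These 4 were Wisp1 (-0.82), Ankrd1 (-0.74), Ctgf (-0.44) and Cyr61 (-0.26), and the call of Cyr61 was lost in 3 of 10 alternatives, among them without control replicate 1 (-0.22) and pre-p38i replicate 2 (-0.18), and that of Ankrd1 without pre-p38i replicate 1 (-0.74). On day 5, 6 were called lower (11.3%) and 0 higher (14.3%), with Wisp1 at -1.26, Ctgf at -1.21, Cyr61 at -0.83, Nov at -0.76, Ankrd1 at -0.66 and Amotl2 at -0.52. Of these, the call of Nov was lost without control replicate 1 or 2 (-0.76 each) or pre-p38i replicate 1 (-0.51), and that of Ankrd1 without control replicate 2 (-0.53) or pre-p38i replicate 2 (-0.45). A fit of only the 4 libraries compared called neither. On day 7, 5 were called lower (14.5%) and 0 higher (15.4%). Ctgf was at 0.300-fold of control (log2 difference -1.74, SE 0.067, limma adjusted p = 3.2e-13) and Cyr61 at 0.349-fold (-1.52, SE 0.065, limma adjusted p = 1.5e-12). Wisp1 was at 0.289-fold (-1.79, SE 0.14) and Amotl2 at 0.657-fold (-0.61, SE 0.082). Ankrd1, listed at 0 and 0 against 3 and 3, was called with no fold given, and Nov missed the threshold (-0.54, limma adjusted p = 0.0668) but passed it under quantile normalization (-0.57, limma adjusted p = 0.0487). The median of all genes tested was 0.05 on day 7.

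The summed levels of cell type markers moved over these days as well. On day 3 fibroblast markers summed to 2090 and 2134 in pre-p38i against 3106 and 2828 in control, macrophage markers to 177 and 162 against 410 and 423, and epithelial markers to 127 and 128 against 67 and 64. On day 5 the fibroblast sums were 1183 and 1101 against 1743 and 1995, the macrophage sums 100 and 95 against 455 and 454, and the epithelial sums 340 and 322 against 144 and 134. Each of these sums thus lay apart from control already on day 3. On day 7 fibroblast markers summed to 621 and 581 in pre-p38i against 1093 and 1154 in control, and all 7 were called lower. Epithelial markers summed to 909 and 949 against 491 and 461, with all 6 called higher, and pluripotency markers to 145 and 137 against 81 and 91, with Nanog at 28 and 28 against 12 and 16. Of the 5 pluripotency markers tested, 2 were called higher. Macrophage markers summed to 49 and 39 against 225 and 237, with Csf1r and Ptprc at 0 in pre-p38i and at 1 in control. The share of the members' fall that goes with these shifts was not tested.

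With p38i present during induction, Wisp1 and Cyr61 were lower than control on days 1 and 3 and higher on day 7. On day 1, 2 members were called lower (12.6% of all genes) and 0 higher (3.47%), Wisp1 (log2 difference -0.75, SE 0.14) and Cyr61 (-0.50, SE 0.065). Ctgf did not pass on day 1 (-0.14, limma adjusted p = 0.161), but it was -0.26 and called without p38i replicate 1 (limma adjusted p = 0.0191) and -0.0258 without p38i replicate 2. Nov was 4 and 5 in both conditions. On day 3, 3 were called lower (16.2%) and 0 higher (5.22%): Wisp1 (-0.54), Amotl2 (-0.39) and Cyr61 (-0.24). The calls of Cyr61 and Wisp1 on day 3 were lost in 4 and 3 of 10 alternatives, quantile normalization among them. Without single libraries that of Cyr61 was lost without control replicate 1 (-0.20) or p38i replicate 1 (-0.22), and that of Wisp1 without control replicate 2 (-0.52) or p38i replicate 2 (-0.50). On day 5, Ctgf alone was called (0.30, SE 0.067, limma adjusted p = 0.0025), which makes 1 member higher (7.87%) and 0 lower (18.7%). Under quantile normalization the higher share of all calls in these 3 comparisons went from 21.6% to 41.2%, from 24.4% to 48.3% and from 29.6% to 53.1%. A fit of only the 4 libraries compared called 0 members on days 1 and 5, while 5 members on day 1 and 1 on day 5 had an unadjusted p under 0.05 in the full fit. Fibroblast markers summed to 2329 and 2343 in p38i against 3439 and 3254 in control on day 1, with 5 of 7 called lower, and to 1644 and 1602 against 3106 and 2828 on day 3, with 6 of 7 called lower. On day 5 they were 1446 and 1444 against 1743 and 1995. Macrophage markers summed to 168 and 180 against 246 and 239 on day 1, to 243 and 226 against 410 and 423 on day 3, and to 204 and 222 against 455 and 454 on day 5. Their part in the members' values was not tested.

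On day 7, 6 members were called higher in p38i (16.5% of all genes) and 0 lower (17.6%). Nov was at 1.85-fold of control (log2 difference 0.89, SE 0.21, limma adjusted p = 0.0032), Ctgf at 1.82-fold (0.87, SE 0.067, limma adjusted p = 1.1e-08) and Cyr61 at 1.60-fold (0.68, SE 0.065, limma adjusted p = 1.7e-07). Ankrd1 (0.70), Wisp1 (0.37) and Amotl2 (0.24) also passed (limma adjusted p = 0.0077, 0.0484 and 0.0325). These last calls were less firm. That of Wisp1 was lost in 8 of 10 alternatives, including the loss of any single library (0.29 to 0.46). That of Amotl2 was lost without control replicate 1 (0.19) or 2 (0.28) or p38i replicate 2 (0.12), and that of Ankrd1 without p38i replicate 2 (0.58). Without single libraries, 3 to 5 members were called: 3 without p38i replicate 2, and 4 in the fit of only the 4 libraries. The median of the 7 members, with Wisp2 counted at 0, was 0.68, beside 0.00 over all genes. Fibroblast markers summed to 1263 and 1300 in p38i against 1093 and 1154, with 2 of 7 called higher. Epithelial markers summed to 220 and 201 against 491 and 461, pluripotency markers to 8 and 10 against 81 and 91, and macrophage markers to 227 and 191 against 225 and 237. Of the 8 macrophage markers tested, 5 were called lower and 1 higher, with a median difference of -0.98. The part of these shifts in the members' rise was not tested.

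**Figure D2:**
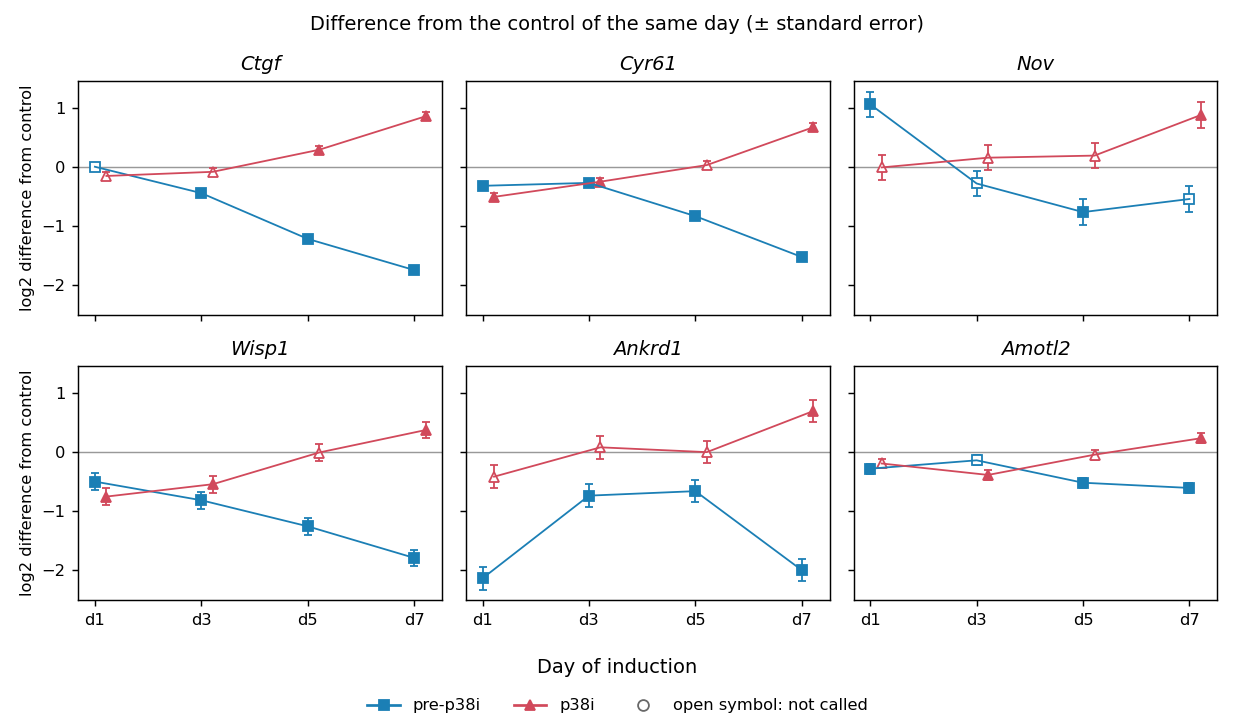
Log2 differences from the control of the same day for 6 members in pre-p38i (squares) and p38i (triangles), with standard errors from limma, filled where called. The pre-p38i line of Ctgf runs from 0.01 on day 1 to -1.74 on day 7, and the p38i line from -0.14 to 0.87. The pre-p38i point of Ankrd1 on day 7 is against a group listed at 0 and depends on the pseudocount.

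Averaged over the 4 days, pre-p38i had 5 members called lower than control (17.7% of all genes) and 0 higher (27.3%), and p38i had 2 higher (14.9%) and 1 lower (33.0%). In pre-p38i the mean differences were -1.38 for Ankrd1, -1.09 for Wisp1, -0.84 for Ctgf, -0.73 for Cyr61 and -0.39 for Amotl2. In p38i they were 0.31 for Nov, 0.24 for Ctgf and -0.23 for Wisp1, and that of Nov was not called without any 1 of 5 libraries (replicate 1 of control days 1, 3 and 7 and of p38i day 3, and replicate 2 of p38i day 1, 0.25 to 0.29). That of Wisp1 was not called under quantile normalization (-0.11) or with a pseudocount of 0.1 (-0.23, limma adjusted p = 0.0566). Both comparisons use the same control libraries. The 2 treated conditions were compared directly without them: all 6 members listed above 0 were higher in p38i than in pre-p38i in the mean of the 4 days (21.9% of all genes were called higher, 43.4% lower, and 0 members lower). Ankrd1 differed by 1.47 (SE 0.095), Ctgf by 1.08 (SE 0.034), Wisp1 by 0.86 (SE 0.071), Cyr61 by 0.72 (SE 0.032), Nov by 0.44 (SE 0.11) and Amotl2 by 0.29 (SE 0.041). The largest limma adjusted p of the 6 was 0.0014, for Nov. This order of the means did not hold on each day. On day 1 Nov was 4 and 5 in p38i against 11 and 10 in pre-p38i, and Ctgf 190 and 161 against 193 and 197. Cyr61 (91 and 82 against 98 and 99) and Wisp1 (25 and 25 against 30 and 30) were also lower in p38i that day. Ankrd1 was higher (15 and 16 against 4 and 4), and Amotl2 overlapped (53 and 50 against 45 and 52). Ankrd1 was listed at 0 in pre-p38i on day 7, so its averages depend on the pseudocount. Over the alternatives they ran from -2.28 to -1.31 in pre-p38i against control and from 1.37 to 2.4 in p38i against pre-p38i. The median of all genes in that comparison was -0.11, and 0.02 under quantile normalization, which moved the share of calls that were higher from 33.5% to 52.0%. For the mean of p38i against control it moved that share from 31.2% to 54.0%.

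The change of these differences between day 1 and day 7 was tested directly, as day 7 minus day 1 of the difference from control. In p38i it was positive for 6 members, all called (14.1% of all genes were called higher, 7.55% lower), with Cyr61 at 1.18 (SE 0.092), Wisp1 at 1.13 (SE 0.20), Ankrd1 at 1.11 (SE 0.27), Ctgf at 1.01 (SE 0.095), Nov at 0.89 (SE 0.30) and Amotl2 at 0.43 (SE 0.12). Nov lost this call in 9 of 14 alternatives (0.76 to 1.02 without single libraries), among them without control day 1 replicate 2, p38i day 1 replicate 1 or any of the 4 day 7 libraries. Amotl2 lost it without control day 1 replicate 1 (0.38), control day 7 replicate 1 (0.39), p38i day 1 replicate 2 (0.39) or p38i day 7 replicate 2 (0.31). In pre-p38i it was negative and called for 4 members (9.43% of all genes were called lower, 7.25% higher), with Ctgf at -1.75 (SE 0.095), Nov at -1.60 (SE 0.30), Wisp1 at -1.29 (SE 0.20) and Cyr61 at -1.21 (SE 0.092). Amotl2 did not pass (-0.33, limma adjusted p = 0.0617), except under quantile normalization (-0.39, limma adjusted p = 0.0238) and without pre-p38i day 1 replicate 1 (-0.43, limma adjusted p = 0.0246). Ankrd1, already low on day 1 and listed at 0 on day 7, had 0.14 (limma adjusted p = 0.787), which was -2.59 with a pseudocount of 0.1.

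In the order of group means, Ctgf, Cyr61, Wisp1, Wisp2, Ankrd1 and Amotl2 had their 2 highest groups in MEFs. The lowest group of Ctgf, Cyr61, Wisp1, Ankrd1, Amotl2 and Nov was pre-p38i on day 7. For Ctgf, p38i on day 7 (451 and 466) came next after MEFs, followed by p38i on day 5, and neither range met its neighbours. Control on day 5 and control on day 3 overlapped, as did pre-p38i and control on day 1. For Cyr61, the next 4 groups after MEFs (p38i day 5, control days 3 and 5, p38i day 7) lay within 136 to 148 and overlapped as neighbours. For Nov, all neighbours below the top group overlapped, except pre-p38i day 1 (10 and 11) and control day 5 (9 and 9).

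Among the members, group means of log2(value + 1) of Cyr61 and Ctgf had a Pearson r of 0.966 over 14 groups, those of Cyr61 and Amotl2 0.974 and those of Nov and Wisp1 0.433. Over the 12 induction groups alone, which leaves out the drop from MEFs, the r of Cyr61 and Ctgf was 0.898, of Cyr61 and Amotl2 0.890, of Wisp1 and Ankrd1 0.831 and of Nov and Ankrd1 0.116. These describe groups that share libraries, cells of origin and time, and carry no test. Among 10668 genes with a mean of at least 5, the profile most like that of Cyr61 was that of Crim1 (r = 0.986), a transmembrane protein that is also on the list of YAP/TAZ targets used here. Ctgf was nearest to Cyr61, then Gm17501 (0.960) and Cited2 (0.949). Wisp1 was nearest to Cdh11 (0.992), a mesenchymal cadherin, Adamts12 (0.984) and Inhba (0.983). Amotl2 was nearest to Lpp (0.990), an adhesion site protein, Ankrd1 to Mprip (0.985) and Pdlim7 (0.984), and Nov to Fzd1 (0.905), a Wnt receptor, and Wnt11 (0.896).

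The mRNAs of the YAP/TAZ module itself were changed in part. Yap1 had group means from 90 to 119.5, and it differed from control on day 7 by 0.05 in pre-p38i and -0.03 in p38i, with neither called. Wwtr1, which encodes TAZ, differed on day 7 by -0.24 in pre-p38i and 0.39 in p38i, both called (limma adjusted p = 0.0043 and 4.4e-05). Of the TEAD genes on day 7, Tead4 was called lower in both conditions (-0.70 in pre-p38i, -0.41 in p38i), and Tead2 was called higher in pre-p38i (0.28) and lower in p38i (-0.30). Tead1 and Tead3 were not called on day 7 in either. Vgll3, a TEAD cofactor, was called lower in pre-p38i (-1.24). From MEFs to control day 1, Tead3 (-1.71), Tead2 (-0.80), Tead1 (-0.69) and Yap1 (-0.25) were called lower and Tead4 (1.20) and Wwtr1 (0.72) higher. Of 20 Hippo kinases and regulators, 1 was called higher and 7 lower in pre-p38i on day 7, led by Amotl1 (-0.69), another angiomotin, beside 15.4% and 14.5% of all genes. In p38i 8 were called higher and 1 lower, led by Amot (0.70), beside 16.5% and 17.6% of all genes. Amot was also the gene called higher in pre-p38i (0.58).

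Of 18 other YAP/TAZ targets listed, 17 were tested and Foxf2 was too low. In pre-p38i 8 were called lower and 0 higher on day 1 (6.24% and 5.40% of all genes) and 7 lower and 2 higher on day 3 (6.87% and 13.8%). On day 5, 11 were called lower and 1 higher (11.3% and 14.3%), and on day 7, 12 lower and 1 higher (14.5% and 15.4%). The median difference on day 7 was -0.53, beside 0.05 over all genes. The largest falls on day 7 were those of Igfbp3 (-1.86), a binding protein of insulin-like growth factors, Fjx1 (-1.58) and F3 (-1.48), which encodes tissue factor. Nuak2, a kinase, was the 1 called higher (0.55). In p38i 13 were called lower and 1 higher on day 1, beside 12.6% and 3.47% of all genes. On day 3, 10 were lower and 1 higher (16.2% and 5.22%), and on day 5, 6 lower and 2 higher (18.7% and 7.87%). On day 7, 9 were called higher and 2 lower (16.5% and 17.6%), with a median of 0.29 beside 0.00 over all genes. Fjx1 (1.15), Rbms3 (0.74) and Gadd45a (0.66) rose most on day 7, and Nuak2 (-0.65) and Igfbp3 (-0.52) fell. The change from day 1 to day 7 relative to control was called positive for 10 and negative for 0 in p38i (14.1% and 7.55% of all genes). In pre-p38i it was called positive for 1 and negative for 7 (7.25% and 9.43%). From MEFs to control day 1 the list was split, with 7 called higher and 9 lower, beside 36.6% and 18.9% of all genes. Its median difference was -0.26, beside 0.14 over all genes. Igfbp3 rose from a mean of 10.5 to 1625 and Nt5e, the ectoenzyme CD73, from 5 to 103.5, while F3 fell from 341.5 to 33. The fall of the 7 members at that step was thus not shared by the whole list. In p38i-treated against untreated MEFs, 6 of the 17 were called lower and 1 higher, beside 8.15% and 9.73% of all genes.

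**Figure D3:**
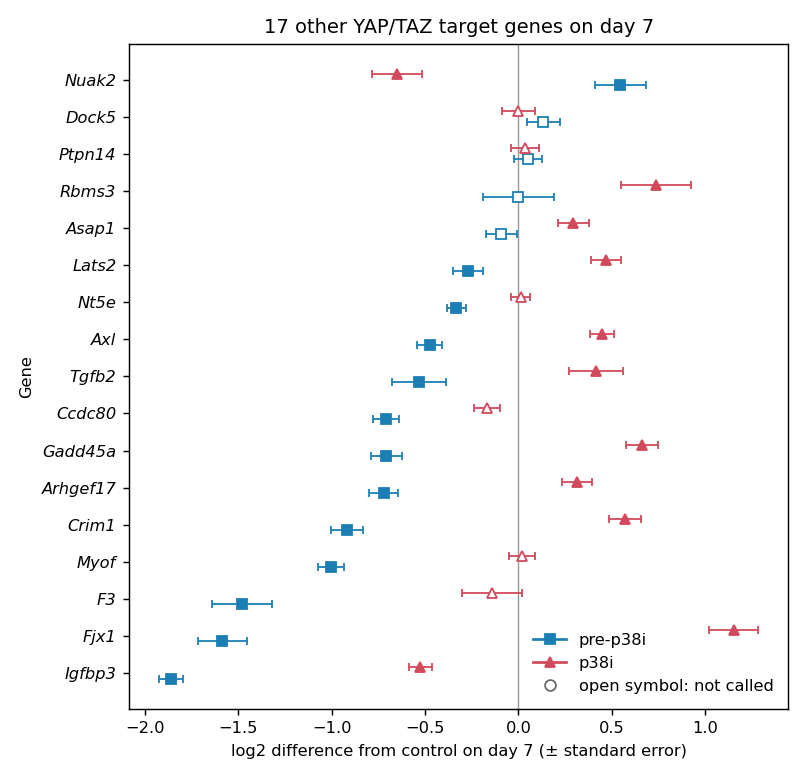
Log2 differences from control on day 7 of 17 other YAP/TAZ targets in pre-p38i (squares) and p38i (triangles), with standard errors from limma and filled symbols where called. In pre-p38i 12 genes were called lower and 1 higher, and in p38i 9 were called higher and 2 lower. Both conditions are set against the same 2 control libraries.

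Genes for the receptors and partners of CCN proteins were called lower in pre-p38i on day 7 for 10 of 12, with Lrp1 at -1.23, Hspg2, the proteoglycan perlecan, at -0.65 and the integrin chain Itgb1 at -0.61, and Notch1 (0.75) was called higher. In that comparison 14.5% of all genes were called lower and 15.4% higher, and in p38i on day 7 17.6% lower and 16.5% higher, which are the shares for the counts that follow. In p38i 5 were called higher and 2 lower, with Fn1, fibronectin, at 0.78 and Itga5, a chain of its receptor, at 0.53, while Notch1 (-0.55) and Sdc4 (-0.53) were lower. Of the SRF and MRTF genes 7 of 12 were called lower in pre-p38i on day 7 and 0 higher, with Tagln at -2.25. In p38i 5 were called higher, with Tagln at 0.77, and 1 lower, Actg2 at -0.88. Of the SMAD targets 6 of 9 were called lower in pre-p38i and 3 higher in p38i, with Ski at 0.51. The higher values in p38i were those of day 7. On days 1, 3, 5 and 7 the median difference in p38i was -0.21, -0.27, -0.09 and 0.07 for the receptors and partners. For the SMAD targets it was -0.60, -0.66, -0.29 and 0.17, and for the SRF and MRTF genes -0.09, -0.10, 0.03 and 0.17. Over all genes it was -0.08, -0.08, -0.08 and 0.00.

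**Figure D4:**
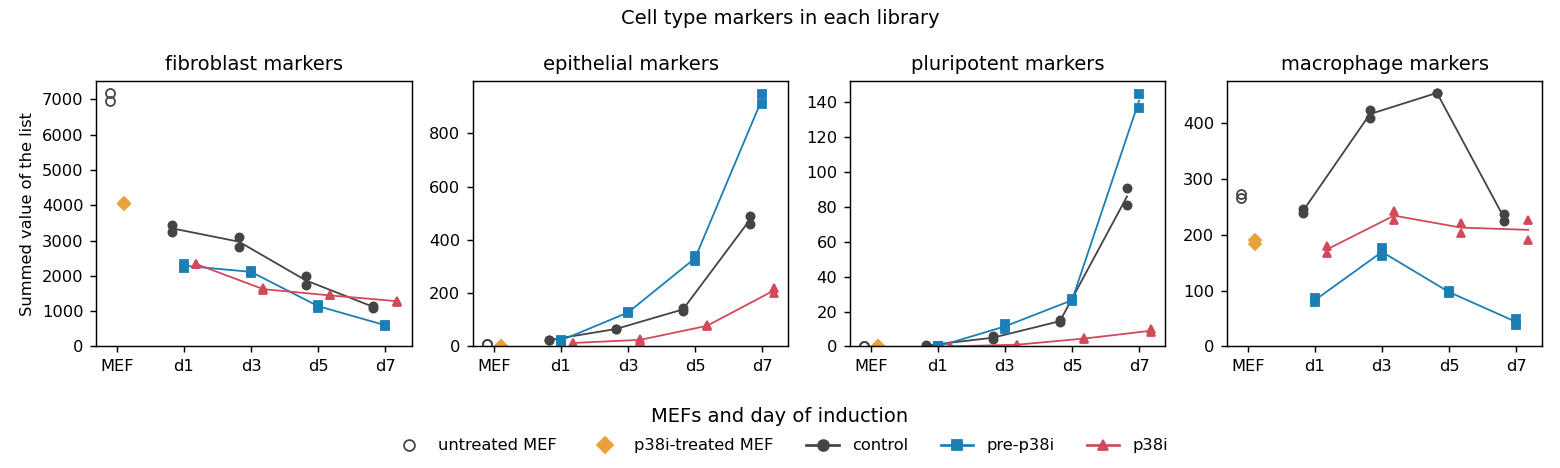
Summed values of fibroblast, epithelial, pluripotency and macrophage markers in each library, in MEFs and on days 1, 3, 5 and 7, where points are libraries and lines join means. On day 7 the fibroblast sum was lowest in pre-p38i (621 and 581) and the epithelial and pluripotency sums were lowest in p38i (220 and 201, 8 and 10).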

How the data were processed

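RNA-seq of 28 libraries was used, 2 for each of 14 groups taken from the sample labels. The values that the authors deposited are a score without decimals for each gene and library, and each library sums to between 991287 and 992537. They were read as TPM rounded down by the authors. The submitters' processing notes name bcl2fastq, Bowtie2 2.2.5, RSEM 1.3.0 and the builds hg38 and mm10. The labels and the paper differ on the library kit and the RNA extraction. Of the gene identifiers, 99.6% are in GENCODE M21 (GRCm38), and 92.9% of those genes have the same position there, as 6 of the 7 members do (not Ankrd1).

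The members and the gene lists were chosen with earlier results of these data known. The list of other YAP/TAZ targets holds published targets written down from general knowledge. Named genes are the members, Wisp3, Yap1, Wwtr1, the TEAD genes, up to 3 called genes of largest rise and fall per list and comparison, and up to 3 genes of most similar profile per member. Marker genes are named from their lists. The values of 1 gene that this rule names are not reported here.

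Since the values are not counts, log2(value + 1) was fitted with limma 3.58.1 (R 4.3.3, eBayes with trend = TRUE) over 13230 genes whose mean reached 1, with the 14 groups in 1 model and Benjamini-Hochberg adjustment in each of 16 comparisons. The fit was tested on simulated data. Near copies were sought with BLAST 2.17.0+ and plots drawn with matplotlib 3.10.9. Alternatives were a pseudocount of 0.1, no filter (all genes with any value above 0), a minimum mean of 5, quantile normalization, a replicate block, only the groups compared, and leaving out each library. Depth is unknown, so no interval for counting error was computed. ESC and iPSC libraries were not analysed here.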

Additional observations from a re-analysis of the deposited data

Results flagged for a closer look

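Differences from control that changed between day 1 and day 7 were marked where a limma contrast of both differences had an adjusted p under 0.05. With 2 libraries a group, single libraries were not tested as outliers. In p38i the difference from control was higher on day 7 than on day 1 by 1.18 for Cyr61, 1.13 for Wisp1, 1.11 for Ankrd1, 1.01 for Ctgf, 0.89 for Nov and 0.43 for Amotl2 on the log2(value + 1) scale. All 6 came from a day 1 difference at or below 0 and ended above 0 on day 7. In pre-p38i the difference changed by -1.75 for Ctgf, -1.60 for Nov, -1.29 for Wisp1 and -1.21 for Cyr61. Nov crossed from above control on day 1 (1.07) to -0.54 on day 7, Ctgf started level with control (0.01), and Cyr61 and Wisp1 started below it. The p38i and pre-p38i tests share their 4 control libraries.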

How the results depend on the processing

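Of the values of single members, those named in the report as called kept their direction in every alternative. Lost calls are given there, except some in the fit of only the libraries compared, whose counts follow. Values near 0 turned their sign. Under quantile normalization Nov from control day 1 to day 7 was -0.10, Nov in p38i on day 1 0.14, Wisp1, Ankrd1 and Amotl2 in p38i on day 5 0.14, 0.23 and 0.0456, and Cyr61 in the p38i mean 0.0452. Ankrd1 in the pre-p38i change from day 1 to day 7 was -2.59 with a pseudocount of 0.1, where a value of 0 weighs more.

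Leaving out single libraries gave -0.022 to 0.0448 for Ctgf in pre-p38i on day 1. In p38i it gave -0.13 to 0.13 for Nov on day 1, -0.0922 to 0.42 for Nov and -0.32 to 0.49 for Ankrd1 on day 3, and -0.0103 to 0.0899 for Cyr61, -0.15 to 0.13 for Wisp1 and -0.13 to 0.13 for Ankrd1 on day 5. For the p38i mean it gave -0.0277 to 0.0177 for Cyr61 and -0.0104 to 0.19 for Ankrd1. Of these, limma called Ankrd1 in the p38i mean without p38i day 3 replicate 1 (0.19, adjusted p = 0.0422), and also under quantile normalization (0.29, adjusted p = 0.0185). Amotl2 in the p38i mean was called without replicate 2 of p38i day 3 or 7 (-0.12 and -0.13), and Amotl2 from control day 1 to day 7 under quantile normalization (-0.21, adjusted p = 0.0365). Members called were 3 to 5 in p38i on day 7 and 3 to 4 in pre-p38i on day 1. Calls over all genes were 1515 to 1676 in MEFs, 1150 to 1643 in p38i on day 1, and 856 to 950 and 1568 to 2050 in pre-p38i on days 1 and 3.

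A fit of only the libraries compared, with fewer degrees of freedom, called 904 genes in MEFs against 2365. On days 1, 3, 5 and 7 it called 359, 753, 1254 and 2285 in pre-p38i, against 1539, 2729, 3387 and 3952, and 853, 1044, 978 and 2749 in p38i, against 2128, 2833, 3514 and 4509. It called 2 members on days 1 and 3 in pre-p38i, against 5 and 4, and in p38i 0, 1 and 0 on days 1, 3 and 5, against 2, 3 and 1. Quantile normalization also called 1 on day 3 in p38i.

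Replicate numbers did not pair the libraries: deviations of same-numbered libraries from their group means correlated between -0.0838 and 0.0874 over 91 pairs of groups. With the number as a replicate block, limma called 3722 (pre-p38i) and 4287 (p38i) genes on day 7, and 3 member calls did not pass: Nov from MEFs to control day 1 (adjusted p = 0.0694), Wisp1 in p38i on day 7 (0.0693) and Nov in the p38i change from day 1 to day 7 (0.0785). Values rounded to whole numbers limit Ankrd1, Nov and Wisp1 late in induction.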
